A study of Mus musculus with 5 samples.

Results

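The cytosolic chaperonin CCT (also called TRiC) and the tubulins it folds were followed through 10 genes, taken by name from the 49671 genes of the count table. Of these, 4 encode CCT subunits (Tcp1, Cct2, Cct5 and Cct8), 2 encode α-tubulins (Tuba1a and Tuba1b) and 4 encode β-tubulins (Tubb2a, Tubb2b, Tubb3 and Tubb5). All 10 were among the 12067 genes kept by the filter on low counts. They were selected on their names with their log2 fold changes of SO− over SO+ embryos already known, so their differences between genotypes are given as a description, without a test. The remaining CCT subunits and tubulins, and other genes of the folding pathway, come with the adjusted p of a test across all genes.

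RNA was sequenced from 2 SO+ embryos (Sox2Cre−/−; Oct4 fl/+) and 3 SO− embryos (Sox2Cre+/−; Oct4 fl/−) of a mixed strain background, dissected at about E6.75, as gastrulation begins. Each library held the epiblast and visceral endoderm (VE) of a single embryo. Both groups carry a floxed Oct4 allele, which lies beside an intact allele in SO+ and beside a null allele in SO− embryos. The Sox2 promoter drives Cre mainly in the epiblast, so the VE of SO− embryos mostly keeps its floxed allele. Total counts were 27538119 and 27047148 in the SO+ libraries and between 1117566 and 4191498 in the SO− libraries, and 3 counts correspond to 0.109 and 0.111 CPM (counts per 1e6 counts) in SO+ against 0.726, 2.68 and 0.716 CPM in SO− embryos, which covers counting error only. The SO+ and SO− libraries also carried different second indices, so that index, depth and genotype cannot be told apart. By these genotypes Cre was carried by the SO− embryos alone, so its presence cannot be told apart from the loss of Oct4. Pou5f1, which encodes Oct4, was at 919.5 and 437.0 CPM in SO+ against 28.01, 12.49 and 44.13 CPM in SO− embryos 1, 2 and 3 (log2 fold change −4.43 ± 0.33 SE, edgeR adjusted p = 3.94e-05, against 0.0639 with limma-voom).

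α- and β-tubulin cannot fold unaided. The nascent chain is received by prefoldin, passed to CCT, a double ring built from paralogous subunits that close over the chain at the cost of ATP, and then joined into an αβ dimer by the tubulin folding cofactors. Actin and a set of WD-repeat proteins use the same chaperonin. Microtubules made from the dimers form the mitotic spindle of the fast-dividing epiblast, and the tubulin genes differ in where they are used, Tubb3 being best known from neurons and Tubb5 and Tuba1b from dividing cells.

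Some tubulin isotypes are near-copies of each other and others are not, and this sets how far their counts can be separated. The last 60 coding bases of 2 pairs of β-tubulins, stop codon included, show it, since the tail of the protein is known as the most variable part of tubulin. They are read 5′ to 3′ from GENCODE M21 transcripts on GRCm38, and capitals mark bases that differ from the partner at the same distance from the stop. Tubb5 and Tubb3 differ in coding length and were not marked.
Tubb2a: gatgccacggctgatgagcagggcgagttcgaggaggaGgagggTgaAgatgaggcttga
Tubb2b: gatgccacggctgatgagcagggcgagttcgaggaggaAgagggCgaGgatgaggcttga
Tubb5: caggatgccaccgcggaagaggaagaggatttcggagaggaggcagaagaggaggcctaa
Tubb3: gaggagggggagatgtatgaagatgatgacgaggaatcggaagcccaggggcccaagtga
In this stretch 3 bases separate Tubb2a from Tubb2b. Over the whole coding sequence, identity was 98.3% between Tuba1a and Tuba1b, 96.5% between Tubb2a and Tubb2b and 81.2% between Tubb3 and Tubb5. Of all 150-base windows of the transcript, 54.7% for Tuba1a, 57.9% for Tuba1b and 46.7% for Tuba1c were found letter for letter in a transcript of another gene. The share was 27.9% for Tubb2a and 20.1% for Tubb2b, which share these windows with each other. For each of this pair 2 other genes held such windows, so a gene outside the pair holds some of them too. The share was 16.8% for Tubb4b, with the pseudogene Tubb4b-ps1. For Tubb3, Tubb5, Tubb4a, Tuba4a and every CCT subunit it was 0%, so no exact match of this length blurs their counts. Inexact or shorter matches, and copies outside the annotation, were not searched. How the counting divided reads within the Tuba1 and Tubb2 groups, or between them and other genes, is not given in the sources used here. Values of those groups are uncertain to that extent.

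**Figure D1:**
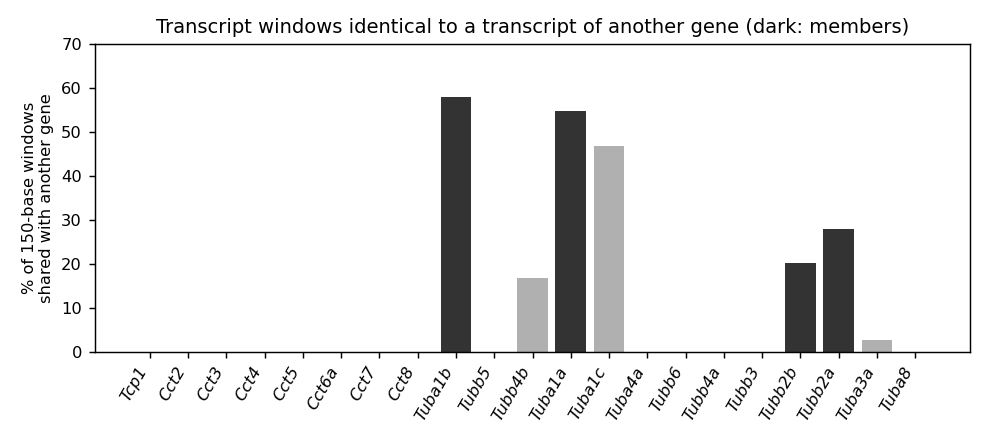
Percentage of 150-base transcript windows (y axis) that occur letter for letter in an annotated transcript of another gene, for each CCT subunit and tubulin tested (x axis), with the 10 members in dark grey. The bars for Tuba1a, Tuba1b and Tuba1c reach 46.7% to 57.9%, while all CCT subunits, Tubb3 and Tubb5 stand at 0%.

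Per kb of coding transcript, the levels formed an upper and a lower tier with nothing between them. The order over all 5 embryos ran from Tuba1b at 1729 CPM per kb through Tubb5 at 1205, Tubb4b at 933 and Cct5 at 805 CPM per kb, and the ranges of these neighbours over the embryos did not overlap. Cct3, Cct8, Cct7, Tcp1, Cct6a, Cct2, Tuba1a and Cct4 followed between 594 and 416 CPM per kb, each overlapping the next over the embryos. Tuba1c, at 344 CPM per kb, closed the upper tier. The lower tier began with Tuba4a at 40.8 and Tubb6 at 40.0 CPM per kb and went on through Tubb4a at 19.0, Tubb3 at 9.15, Tubb2b at 6.14 and Tubb2a at 4.99 CPM per kb, with Tuba3a and Tuba8 last at 2.97 and 1.78, again with overlap between neighbours. When all annotated exons were used as the length, the 4 highest genes stood in the same order, but Cct3 and Cct7, whose annotated exons cover 6370 and 6778 bases against coding transcripts of 1977 and 2441 bases, moved to places 13 and 12.

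The CCT subunits were abundant, and the log2 fold changes of the 4 members (SO− over SO+, as throughout) lay between −0.09 and 0.06. Tcp1 (ENSMUSG00000068039), which encodes CCTα, was at 1260 and 1347 CPM in SO+ embryos 1 and 2 against 1334, 1395 and 1341 CPM in SO− embryos 1, 2 and 3. The genotypes overlapped, with a log2 fold change of 0.06 ± 0.09 SE. Cct2, encoding CCTβ, was at 909.5 and 992.6 CPM against 908.6, 814.8 and 951.3 CPM. The lowest value belonged to the shallowest library, SO− embryo 2, and the log2 fold change was −0.09 ± 0.10 SE. Cct5, encoding CCTε, was at 1529 and 1566 CPM against 1438, 1448 and 1473 CPM. Here all 3 SO− embryos lay below both SO+ embryos, by a log2 fold change of −0.09 ± 0.08 SE. Cct8, encoding CCTθ, was at 1346 and 1441 CPM against 1335, 1361 and 1323 CPM, with overlap and a log2 fold change of −0.06 ± 0.08 SE. With single embryos left out, the fold changes of these 4 ranged from −0.16 to 0.10, moving by over 1.5 times for Tcp1, Cct2 and Cct8 but without a change of sign. Every one of the 4 lay at or above the 99.1 percentile of expression among the genes tested.

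**Figure D2:**
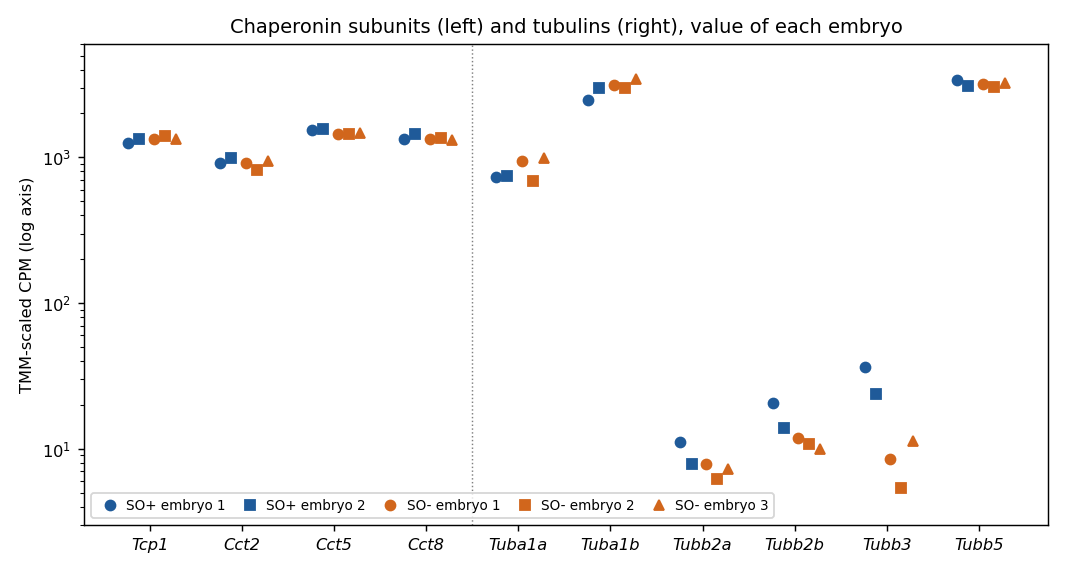
TMM-scaled CPM on a log axis for the 10 members (x axis), 1 point per embryo, with SO+ embryos in blue and SO− embryos in orange. The CCT subunits, Tuba1a, Tuba1b and Tubb5 lie between 690.7 and 3441 CPM with the genotypes close together, and the SO− points of Tubb3 (5.36 to 11.3 CPM) lie below its SO+ points (23.8 and 36.4 CPM).

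For the subunits outside the member list, no difference passed the test. Cct3, encoding CCTγ, had a log2 fold change of −0.07 with a 95% interval from −0.26 to 0.12 (edgeR adjusted p = 0.823). Cct4, encoding CCTδ, was at −0.06 (interval −0.26 to 0.15, adjusted p = 0.881). Cct6a, encoding CCTζ, was at −0.12 (interval −0.30 to 0.07, adjusted p = 0.630), and Cct7, encoding CCTη, at −0.08 (interval −0.26 to 0.11, adjusted p = 0.791). Their fold changes over all alternatives to the fit stayed between −0.16 and 0.04, and none was called under any of them. Cct6b, the testis form of CCTζ, had 1 and 9 counts in SO+ against 1 count in each SO− embryo, and was not kept by the filter.

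Together the 8 subunits of the particle took 0.981% and 1.04% of all counts in SO+ against 0.956%, 0.963% and 0.976% in SO− embryos. All 3 SO− values lay below the SO+ values, at 1.01% ± 0.042 (SD, n = 2) against 0.965% ± 0.011 (SD, n = 3), but the margin was narrow. As TMM-scaled CPM per kb of exons the sums overlapped, at 2554 and 2717 in SO+ against 2496, 2487 and 2563 in SO− embryos. The particle holds its subunits in equal number, but the mRNAs were not equal per length. Per kb of coding transcript, Cct4 was lowest and Cct5 highest in each of the 5 embryos, and the highest stood 1.85 to 2.07 times over the lowest. Over the subunits, SO+ embryos had a coefficient of variation of 22.9% and 20.3%, and it was 21.4% for SO− embryo 1, 22.0% for SO− embryo 2 and lowest, by a small margin, for SO− embryo 3, so the imbalance was of like size in both genotypes. For Cct6a, which has no coding model in GENCODE M21, the longest transcript served as the length. With all annotated exons as the length, Cct5 was again highest (mean 539.0 CPM per kb), but Cct3 was lowest (mean 184.4 CPM per kb). The lowest subunit and the size of the imbalance thus depend on the length used.

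**Figure D3:**
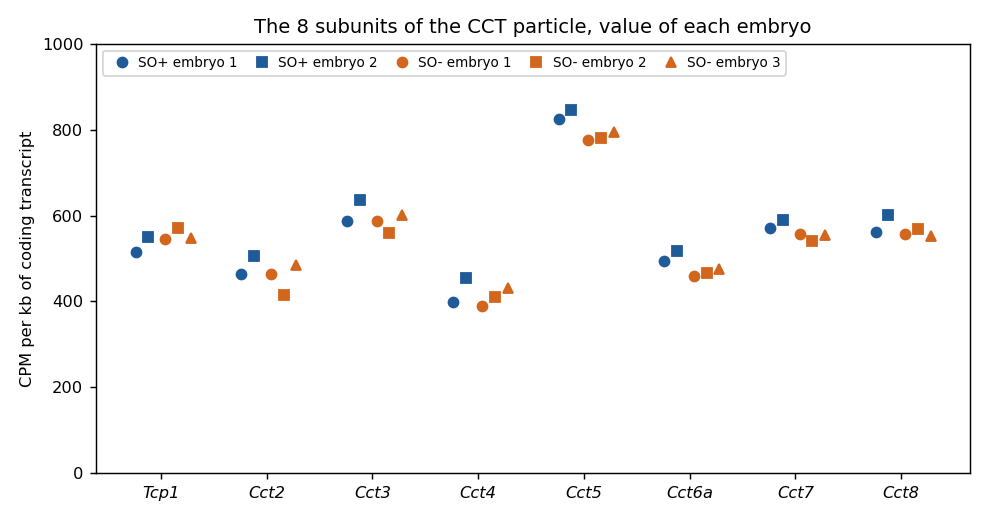
CPM per kb of coding transcript (y axis, from 0) for the 8 CCT subunits (x axis), 1 point per embryo, SO+ in blue and SO− in orange. In every embryo Cct5 is highest (776 to 845 CPM per kb) and Cct4 lowest (388 to 454 CPM per kb).

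The α-tubulin pool was dominated by Tuba1b in every embryo. Tuba1b (ENSMUSG00000023004) was at 2472 and 3006 CPM in SO+ against 3138, 3008 and 3441 CPM in SO− embryos. All SO− values lay above the SO+ values (3196 ± 222, SD, n = 3, against 2739 ± 377, SD, n = 2), although SO− embryo 2 barely exceeded SO+ embryo 2. The log2 fold change was 0.22 ± 0.10 SE, and it was 0.37 without SO+ embryo 2 and 0.08 without SO+ embryo 1. Tuba1a (ENSMUSG00000072235), which lies close to Tuba1b on chromosome 15, was at 730.6 and 746.3 CPM against 945.7, 690.7 and 993.3 CPM. SO− embryos 1 and 3 were above and SO− embryo 2 below both SO+ embryos, with a log2 fold change of 0.25 ± 0.13 SE that became 0.39 without SO− embryo 2 and 0.15 without SO− embryo 3. With Tuba1a, Tuba1b and Tuba1c summed, the log2 fold change was 0.19. The sum removes the effect of dividing reads among the 3. Each of them also shares windows with 9 other genes, some outside the 3, and reads counted there are not in the sum. Tuba1b made up 59.8% and 66.2% of α-tubulin counts in SO+ against 64.7%, 67.1% and 66.3% in SO− embryos.

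Among the α-tubulins that are not members, Tuba4a, an isotype known from muscle and brain, was lower in SO− embryos. It was at 197.8 and 144.9 CPM in SO+ against 79.7, 71.4 and 85.9 CPM in SO− embryos. The groups were far apart, with a log2 fold change of −1.10 ± 0.15 SE (edgeR adjusted p = 0.00187). The call was lost when SO− embryo 1 (adjusted p = 0.059) or 2 (0.0852) was left out and with limma-voom (0.0775), while the fold change stayed between −1.31 and −0.86 over all alternatives. Tuba1c, the third ubiquitous α-tubulin, did not pass the test at −0.01 (interval −0.22 to 0.20, adjusted p = 0.986). Tuba3a, at 2.44 to 6.99 CPM, and Tuba8, at 1.37 to 8.92 CPM, had intervals of −1.24 to 1.09 and −0.17 to 2.79 (adjusted p = 0.981 and 0.436), which both include a 2-fold difference. Tuba3b and Tubal3 did not pass the filter, and Tubal3 had no count in any embryo.

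The β-tubulin pool was carried by Tubb5 and Tubb4b. Tubb5 (ENSMUSG00000001525), the β-tubulin of dividing cells, was at 3384 and 3077 CPM in SO+ against 3213, 3036 and 3247 CPM in SO− embryos. The genotypes overlapped, and the log2 fold change of −0.03 ± 0.08 SE turned to 0.04 when SO+ embryo 1 was left out. Tubb4b, the other abundant isotype, was at −0.06 (interval −0.26 to 0.14, adjusted p = 0.859). Tubb5 held 64.0% and 66.0% of β-tubulin counts in SO+ against 66.7%, 66.8% and 66.9% in SO− embryos.

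The members of low level are all β-tubulins, and for each of them the 3 SO− values lay below both SO+ values. Tubb3 (ENSMUSG00000062380, chromosome 8, positions 123411424 to 123422015 of GRCm38), known as the neuronal class III β-tubulin, was at 36.4 and 23.8 CPM in SO+ against 8.53, 5.36 and 11.3 CPM in SO− embryos. The groups were well apart (30.1 ± 8.9 CPM, SD, n = 2, against 8.41 ± 3.0 CPM, SD, n = 3), with a log2 fold change of −1.73 ± 0.30 SE. It ranged from −2.11 to −1.41 over all alternatives. The SO− values rest on 35, 6 and 47 counts. Tubb2b, abundant in the developing brain, was at 20.6 and 13.9 CPM against 11.9, 10.7 and 9.89 CPM. The groups did not overlap, but SO+ embryo 2 lay nearer to the SO− embryos than to SO+ embryo 1, with a log2 fold change of −0.67 ± 0.30 SE that became −0.36 without SO+ embryo 1. Tubb2a was at 11.1 and 7.83 CPM against 7.80, 6.25 and 7.23 CPM. Its groups almost touched, with a log2 fold change of −0.38 ± 0.36 SE that became −0.12 without SO+ embryo 1. The pair Tubb2a and Tubb2b summed gave −0.56.

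Of the other low-level β-tubulins, Tubb4a, best known from brain, was at 72.5 and 61.1 CPM in SO+ against 30.2, 25.0 and 22.9 CPM in SO− embryos. All SO− embryos lay well below both SO+ embryos, with a log2 fold change of −1.35 ± 0.19 SE (edgeR adjusted p = 0.00201). The call was lost only without SO− embryo 2 (adjusted p = 0.0688). Tubb6 was at 121.2 and 61.0 CPM against 66.8, 41.9 and 61.0 CPM, with overlap, and did not pass the test (−0.64, interval −1.19 to −0.09, adjusted p = 0.262). Without SO+ embryo 2 it was called (−1.05, adjusted p = 0.000722), and without SO+ embryo 1 its fold change was −0.07, so its value rests on which SO+ embryo is kept. Tubb1, the β-tubulin of platelets, had at most 4 counts in an embryo and was not tested.

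**Figure D4:**
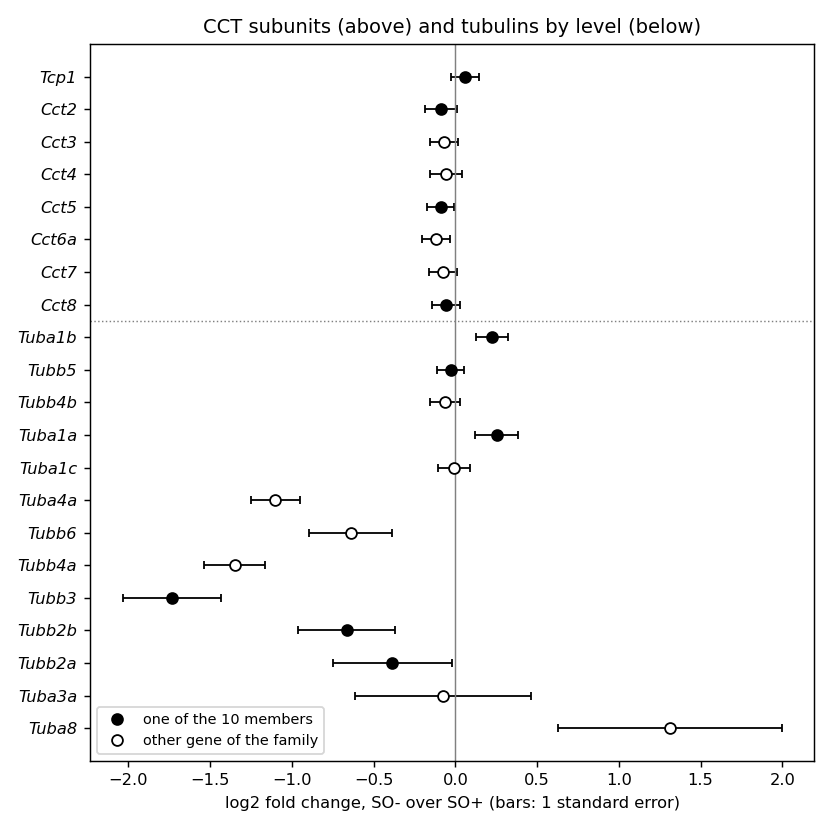
log2 fold change of SO− over SO+ (x axis, bars 1 standard error) for the 8 CCT subunits above the dotted line and the 13 tested tubulins below it, ordered by level from top to bottom, with filled points for the 10 members. Points of the CCT subunits and of the 5 most abundant tubulins lie between −0.12 and 0.25, and those of Tuba4a, Tubb6, Tubb4a, Tubb3, Tubb2b and Tubb2a between −1.73 and −0.38.

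Summed, Tuba4a, Tubb2a, Tubb2b, Tubb3, Tubb4a and Tubb6 were at 459.6 and 312.5 CPM in SO+ against 204.9, 160.6 and 198.2 CPM in SO− embryos (386 ± 104, SD, n = 2, against 188 ± 24, SD, n = 3). These isotypes were grouped after their values were seen, and Tuba3a and Tuba8, the 2 lowest tested tubulins, were left out (log2 fold changes −0.07 and 1.31), so the sum is a description of isotypes that were all below 0. Of all genes tested between 20 and 250 CPM, 3.20% had a log2 fold change below −0.5, and 14.2% of those between 5 and 20 CPM did. The medians of these classes were 0.0075 and 0.0022. Among genes between 500 and 5000 CPM, where the CCT subunits and the main tubulins lie, 69.5% had a log2 fold change within 0.15 of 0 and the median was −0.047, so the small differences of the chaperonin subunits are those of most genes at that level.

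Counted over the list, 7 of the 10 members had a log2 fold change below 0, with a median of −0.07, against 6070 of 12067 and a median of −0.0019 over all genes tested. All SO− embryos lay below all SO+ embryos for 4 members (Cct5, Tubb2a, Tubb2b and Tubb3), against 15.1% of all genes tested, and above them for 1 (Tuba1b), against 14.2%. Across all genes, 283 (2.35%) passed the test, of which 171 (1.42%) were higher and 112 (0.928%) lower in SO− embryos. Of the members, 1 (Tubb3) was among them, and nothing is read from that count because the same comparison was known when the members were chosen. In samples of mixed tissue such as these, fewer cells of a type and less RNA per cell cannot be told apart.

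The chaperonin was then set against its clients by a ratio taken within each library. The summed CPM per kb of exons of the 4 CCT members, divided by that of the 6 tubulins, was 0.574 and 0.570 in SO+ against 0.495, 0.536 and 0.474 in SO− embryos. The ratio was lower in each SO− embryo, at 0.572 ± 0.003 (SD, n = 2) against 0.502 ± 0.032 (SD, n = 3), a log2 difference of −0.19. With coding transcripts as the length it was 0.754 in both SO+ embryos and 0.660, 0.715 and 0.632 in SO− embryos. Leaving out the highest gene of each side, Cct5 and Tuba1b, brought the log2 difference to −0.0784. With whole families in place of the members the ratio was 0.635 and 0.676 in SO+ against 0.587, 0.629 and 0.577 in SO− embryos. The log2 difference was then −0.13, and SO− embryo 2 almost reached SO+ embryo 1. Over all tubulins, α-tubulin stood to β-tubulin at 1.09 and 1.39 per kb of exons in SO+ against 1.46, 1.42 and 1.55 in SO− embryos, with SO+ embryo 1 apart from the rest.

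**Figure D5:**
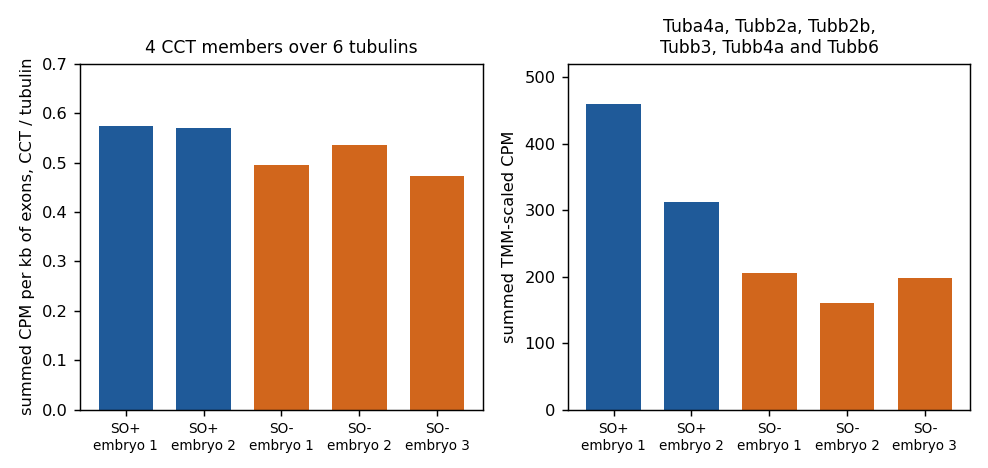
Left, ratio of the summed CPM per kb of exons of the 4 CCT members to that of the 6 tubulin members, 1 bar per embryo (0.570 and 0.574 in SO+, 0.474 to 0.536 in SO−). Right, summed CPM of Tuba4a, Tubb2a, Tubb2b, Tubb3, Tubb4a and Tubb6, where the SO− bars (160.6 to 204.9 CPM) are shorter than both SO+ bars (312.5 and 459.6 CPM).

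The rest of the pathway was read from 10 hand-written lists, in which 94 tested genes are not members. Of these, 4 were lower in SO− embryos (Tuba4a, Tubb4a, Vash2 and Stmn2), 0 were higher and 90 did not pass edgeR's test. Over all genes tested, 0.928% were called lower and 1.42% higher. Of all 94, 14 had an unadjusted p under 0.05 in edgeR's test, the 4 called genes among them, and DESeq2 called the same 4. The share of all genes under that unadjusted p was not counted, so nothing is read from the 14. Upstream of CCT, none of the 9 tested prefoldin and phosducin-like genes was called. Vbp1, the prefoldin subunit of highest level, was at −0.27 (interval −0.55 to −0.0016, adjusted p = 0.360), and Txndc9, a phosducin-like CCT binder, at −0.15 (adjusted p = 0.666). Downstream of CCT, none of the 8 tubulin cofactor genes was called. Tbcb and Tbca, which hold α- and β-tubulin after release, were at 0.01 and 0.09 (adjusted p = 0.986 and 0.862).

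Other clients and chaperones gave no call either. None of the 12 other CCT clients was called, the actins Actg1 and Actb lying at 0.10 and 0.08 (adjusted p = 0.700 and 0.829). None of 16 other chaperone genes was called, and Hsp90ab1 and Hsp90aa1, the cytosolic HSP90 genes, were at 0.01 and −0.05 (adjusted p = 0.977 and 0.872). Of 11 tested genes of the γ-tubulin ring complex, which nucleates microtubules, none was called, with Tubg1 at 0.10 and Tubgcp2 at −0.13 (adjusted p = 0.854 and 0.843).

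Single calls came from genes that act on tubulin after the dimer is made. Vash2, which removes the last tyrosine of α-tubulin, was at 33.1 and 33.4 CPM in SO+ against 16.3, 15.2 and 16.9 CPM in SO− embryos. This was a tight separation, with a log2 fold change of −1.03 ± 0.21 SE (edgeR adjusted p = 0.0216), but the call was lost in 5 of 15 alternatives, among them leaving out any embryo other than SO+ embryo 2, with an adjusted p of up to 0.171. None of the other 10 tested tubulin-modifying enzymes was called, the most abundant being Hdac6, a tubulin deacetylase, at 0.40 (adjusted p = 0.134) and Ttll12 at 0.11 (adjusted p = 0.769). Stmn2, a neuronal protein that binds tubulin dimers, was at 43.5 and 35.0 CPM against 20.5, 8.03 and 12.5 CPM, a log2 fold change of −1.41 ± 0.28 SE (edgeR adjusted p = 0.0187). Its call was lost without SO− embryo 2 (adjusted p = 0.172) or 3 (0.086) and with limma-voom (0.141). None of the other 15 microtubule-binding genes was called. Mapre1, which tracks growing microtubule ends, and Clasp2 were both at 0.17 (adjusted p = 0.576 and 0.571).

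Because Tubb3, Tubb4a and Stmn2 are best known from neurons, neuronal markers were read beside them. Summed over 10 neuronal genes, the level was 29.1 and 20.1 CPM in SO+ against 7.80, 5.36 and 8.92 CPM in SO− embryos. Elavl3 (16.3 and 9.95 CPM) and Map2 (6.02 and 4.8 CPM) made up most of the SO+ sums. No other gene of the list exceeded 2.17 CPM in any embryo, while 3 counts are 2.68 CPM in SO− embryo 2. Elavl4 had the higher mean in SO− embryos (1.29 against 0.66 CPM). Only 2 of the list passed the filter, Elavl3 at −3.11 ± 0.46 SE (edgeR adjusted p = 0.003, with the call lost without SO− embryo 1 or 2 or with limma-voom, up to 0.224) and Map2 at −1.08 (adjusted p = 0.407), and Neurod1 was at 0 in every embryo. Epiblast markers (9 genes, all detected) summed to 6878 and 5635 CPM against 3248, 2852 and 4045 CPM. Of these, Pou5f1, Utf1 (−2.08, adjusted p = 0.000406) and Dnmt3b (−0.99, adjusted p = 0.00392) were called lower. The other 6 were not called, with Sox2 at 0.56 (adjusted p = 0.514, all SO− embryos above the SO+ embryos), Fgf5 at 0.38 (adjusted p = 0.274) and Epcam at 0.04 (adjusted p = 0.941) above 0 and Otx2, Pou3f1 and Tdgf1 below it. Dnmt3b alone was at 3980 and 3276 CPM in SO+ against 1720, 1443 and 2310 CPM in SO− embryos, so that it makes up most of the sum, which also includes the deleted gene. VE markers (13 genes, all detected) summed to 4390 and 4469 CPM against 6286, 6325 and 4169 CPM, with Sox17 (1.33, adjusted p = 0.0365) and Cer1 (0.69, adjusted p = 0.0126) called higher. The other 11 were not called, from Amn at 0.01 (adjusted p = 0.996) to Hnf4a at 0.78 (adjusted p = 0.113). Sox17 is not particular to VE. The paper reads it as a marker of definitive endoderm and saw it ectopically in SO− epiblast at E7.5. Markers of extra-embryonic ectoderm (9 genes, 6 tested), removed at dissection, summed to 34.6 and 33.1 CPM in SO+ against 45.3, 60.7 and 35.7 CPM in SO− embryos. All SO− sums lay above the SO+ sums, and none of the genes was called. Only the 2 highest of the list, Furin and Bmp4, had all SO− embryos above both SO+ embryos, and 1 gene had them all below. Furin was at 14.6 and 11.5 CPM against 15.35, 25.0 and 15.43 CPM. Bmp4 was at 4.43 and 3.86 CPM against 10.7, 16.1 and 5.3 CPM. A difference in carry-over of this tissue was not tested. Markers of maternal tissue and blood, 5 of 8 at 0 throughout, summed to 0.508 to 3.38 CPM. The part of tissue composition in the tubulin differences was not tested.

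Position on chromosome 17, which carries Pou5f1, was read for the members there. Tubb5 lies 0.323 Mb from Pou5f1 and Tcp1 22.6 Mb from it, and the genotypes overlapped for both. Tubb4a, which was called lower, lies 21.6 Mb away. Strain differences linked to the Oct4 alleles in a mixed background cannot be told apart from the deletion for these 3 genes.

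The stretches just upstream of 2 low-level and 2 abundant tubulins are shown because the low-level pair shares a TATAA at a like distance from the start. Each is the 90 bases before the RefSeq start on GRCm38.p6, 5′ to 3′ on the gene's strand, with capitals for TATAA (this strand), CCAAT or GGGCGG (either strand).
Tubb3, chr8:123411463-123411552, plus strand: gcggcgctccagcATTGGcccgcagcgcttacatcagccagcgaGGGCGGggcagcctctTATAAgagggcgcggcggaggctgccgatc
Tubb2a, chr13:34078009-34078098, minus strand: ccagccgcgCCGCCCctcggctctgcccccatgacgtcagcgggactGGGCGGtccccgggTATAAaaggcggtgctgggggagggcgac
Tuba1b, chr15:98934391-98934480, minus strand: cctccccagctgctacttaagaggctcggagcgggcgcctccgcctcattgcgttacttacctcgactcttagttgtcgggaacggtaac
Tubb5, chr17:35838302-35838391, minus strand: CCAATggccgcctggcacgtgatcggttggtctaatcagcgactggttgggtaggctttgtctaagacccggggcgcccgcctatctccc
TATAA began 30 bases before the start in Tubb3 and 29 bases before it in Tubb2a, both with a GGGCGG just upstream, and was not among the letters of the Tuba1b and Tubb5 stretches. Tuba1a, an abundant member whose stretch is not shown, did have a TATAA in these 90 bases, 78 bases before its start. The 4 stretches thus do not set low-level apart from abundant tubulins. In the full RefSeq windows, from 250 bases before to 50 bases after each start, TATAA on the gene's strand occurred in 17.5% of 32851 windows, in 0 of 10 windows of CCT genes and in 5 of 14 windows of tubulin genes (Tuba1a, Tuba4a, Tubb2a, Tubb3 and Tubb4b), which include abundant isotypes. In Tuba4a and Tubb4b the TATAA began 11 and 18 bases after the start. GGGCGG occurred in 35.7% of all windows and in 10 of 11 windows of members (9 members matched an entry). CCAAT was in 37.4% of all and 4 of 11 member windows, and the heat shock element GAANNTTC in 7.86% and 1, in Cct2. The octamer ATGCAAAT, the letters Oct4 is known to bind, was in 1.74% of all windows and in 0 of the 11. These are matches of letters in a short window, and say nothing of binding.

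The genes whose profile over the 5 embryos was most like that of the 4 CCT members (the mean of their standardised log2(CPM + 1)) were Tmem266 (Pearson r = 0.992), Snx10 (0.991), Capza2 (0.989), Utp3 (0.986) and Timm23 (0.985). None of them was called, and the members' own r with that mean ran from 0.171 for Tcp1 to 0.919 for Cct8. The 4 CCT members differed little between embryos, so these r values cannot tell whether the subunits vary together. For the 6 tubulins the genes were Cdan1 (0.999), Tmem102 (0.999), Nr1d1 (0.998), Gas5 (0.998) and Atp5g2 (0.997), none of them called. The tubulins' own r ran from −0.348 for Tuba1b to 0.909 for Tubb5. With 5 embryos, which share genotype and depth, 36 and 229 of the genes tested exceeded an r of 0.95, so these are descriptions of the libraries.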

How the data were processed

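RNA of the epiblast and VE of 2 SO+ and 3 SO− embryos was amplified by SmartSeq2. The authors trimmed reads with cutadapt, aligned them to GRCm38/mm10 with STAR and counted them per Ensembl gene with HTSeq-count. The deposited values are raw counts per gene, 1 column per embryo, without normalization. Strand use and duplicate removal are not given in the sources used here, and PCR copies of a molecule cannot be recognised.

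Counts were scaled to CPM with TMM and tested with edgeR 4.0.16 in R 4.3.3 (quasi-likelihood F test with genotype as sole factor, low counts removed by filterByExpr, Benjamini-Hochberg adjustment over 12067 genes, threshold 0.05). Each standard error was obtained as |log2 fold change| over the root of its F statistic. Coordinates and lengths came from GENCODE M21, which matched 99.3% of genes, and promoters from RefSeq (GRCm38.p6). Embryos were assigned from their labels and taken as separate samples. Chi-square per degree of freedom between libraries of a genotype ran from 2.89 to 32.7. It grows with depth and cannot tell separate embryos from repeat libraries of the same RNA. The test code was run on simulated counts with the same dispersion for every gene, which does not show how it performs on these embryos.

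The members, lists and tests were chosen with earlier results of these data known. Named genes are all members, Pou5f1, every other CCT subunit and α- or β-tubulin, the called genes and the 2 of highest CPM on each other list, and the 5 genes most like each mean profile. DESeq2 1.42.0, limma-voom (limma 3.58.1), other scalings and filters, the replicate number as a block, SO+ counts thinned to the average size of an SO− library (10 draws), near-identical copies summed, other lengths and each embryo left out were tried as alternatives. Coding transcript length as an alternative was chosen after seeing the data.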

Additional observations from a re-analysis of the deposited data

How the results depend on the processing

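The count of genes called was 283, and it ranged from 35 (without SO− embryo 2) to 573 (without SO+ embryo 2) when single embryos were left out. It was 180 without SO+ embryo 1, 46 without SO− embryo 1 and 263 without SO− embryo 3, 91 with limma-voom (82.4% of them higher, against 60.4% with edgeR), 380 with DESeq2, and between 267 and 313 under the other scalings and filters. Calls among the pathway genes outside the members numbered 4 (Tuba4a, Tubb4a, Vash2 and Stmn2). They numbered 1 (Tubb4a) with limma-voom, and between 0 (without SO− embryo 2) and 8 (these 4 with Map1b, Map6, Stmn1 and Tubb6, without SO+ embryo 2) with an embryo left out, being 2 without SO− embryo 1 and 2 without SO− embryo 3. All 4 were called with the SO+ libraries thinned. The replicate numbers were not taken to pair the embryos. The correlation of deviations was −0.01 and 0.12 for the 2 shared numbers. This cannot exclude pairing, since the deviations of the 2 SO+ embryos are equal and opposite. A replicate block raised the calls to 929 and those on the pathway lists to 10, Tubb6 among them (−0.74, edgeR adjusted p = 0.00321). In that fit SO− embryo 3 is alone in its block and adds nothing to the fold changes. The chaperonin to tubulin ratio (log2 difference −0.19) ranged from −0.24 to −0.15 with an embryo left out and was −0.0784 without the highest gene of each side. Members below 0 numbered 6 or 7 in every alternative. The cause of these changes was not tested. Counting error is largest in SO− embryo 2, where Tubb3 has 6 and Tubb2a 7 counts.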
